A study of Mus musculus with 2 samples.

Results

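T lymphocytes are told apart by a small set of transcripts. Cd4 and the pair Cd8a and Cd8b1 encode the coreceptors that mark helper and cytotoxic lineages. Ccr7, a chemokine receptor that guides cells into lymph nodes, and Lef1, a transcription factor, are high in naive T cells, which have not yet met antigen. Dapl1 is a transcript of naive-type T cells, and Ms4a4b encodes a membrane protein of T and NK cells. Gzma and Gzmb encode granzymes, the proteases that cytotoxic T cells and natural killer (NK) cells release into target cells. These 9 genes were followed in mouse lung cells, chosen by gene symbol, and each matched 1 of the 31053 genes in both count matrices. Their levels and joint detection were described in cells with at least 1 UMI (unique molecular identifier, standing for 1 captured transcript) of at least 2 of Cd3d, Cd3e, Cd3g, Trbc2, Lck and Nkg7, called T or NK marker-positive cells below.

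The mice carried NG2-CreERTM, in which the promoter of the NG2 gene (Cspg4) drives a tamoxifen-dependent Cre, and the Ai14 tdTomato reporter. All received tamoxifen at 2 mg per 30 g body weight and rested for 7 days. The Hypoxia group was then kept at 10% inspired oxygen for 21 days, and the Normoxia group was labelled as not treated. According to the labels, tdT-positive cells were sorted from the digested lungs. The labels mention replicates, but there was 1 library per group. How many animals each library held is not given in the sources used here. No test between groups was therefore possible: every difference below is between 2 libraries, and every interval is a 95% interval for counting error only. Intervals of UMI sums and ratios take each UMI as independent, so they are too narrow where many UMIs of a gene lie in 1 cell.

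After the filters 293 Normoxia and 453 Hypoxia cells were retained, from 1323874 and 1989423 UMIs in all barcodes. The T or NK marker-positive cells numbered 23 in Normoxia (7.85% of retained cells, exact interval 5.04 to 11.5%) and 80 in Hypoxia (17.7%, 14.3 to 21.5%). Their median depth was 3430 and 3173.5 UMIs, and their summed depth 98502 and 292467 UMIs, so the Normoxia values are the less precise. The rule admitted 9 Normoxia and 2 Hypoxia cells with exactly 2 of its 6 genes, while 13 cells of each library had exactly 1 and stayed outside. At least 1 of the 9 genes was detected in 1 of those 9 Normoxia cells and 1 of those 2 Hypoxia cells, and in 1 and 2 of the 13 cells outside. A UMI of Cd3d, Cd3e or Cd3g was present in 21 of 23 and 74 of 80 of the marker-positive cells. The sort was aimed at NG2-lineage cells, but the 8 pericyte markers together gave 1 UMI in the Normoxia and 2 UMIs in the Hypoxia marker-positive cells. The shares of marker-positive cells are therefore shares of sorted libraries and are not read as the abundance of T cells in the lung.

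Clustering of all retained cells without the 9 genes split the marker-positive cells into 3 main clusters. Cluster 3, T or NK cell-like and led among the other genes by Cd3d, Trbc2, Cd3e and Tcf7, held 7 Normoxia and 53 Hypoxia marker-positive cells. Cluster 4, T or NK cell-like and led by Ccl5, Nkg7, Klrk1 and Il2rb, held 6 and 23. Cluster 1, unnamed and led by Calca, Tnfrsf18, Il1rl1 and Arg1, held 8 and 1. The 8 Normoxia cells of cluster 1 were 34.8% of the marker-positive cells there, against 1.25% in Hypoxia. All 8 had a UMI of Trbc2, the beta chain constant region of the T cell receptor, 5 had Cd3g, 5 had Il1rl1 (the IL-33 receptor) and 4 had Gata3, and none of the 9 genes was detected in any of them. Ratios between the libraries are therefore also given without cluster 1 and within clusters 3 and 4. A further Normoxia cell, in cluster 3, held 17959 UMIs, 18.2% of the marker-positive total, had 111 UMIs of endothelial markers and was the Normoxia cell marked as a doublet by Scrublet. Of the 219 endothelial UMIs in the Normoxia marker-positive cells, 108 remained without it. Without it the log2 ratio, Hypoxia over Normoxia, was 2.36 (0.74 to 4.68) for Cd8a, 3.74 (1.85 to 6.81) for Dapl1, 1.35 (0.56 to 2.27) for Ms4a4b, 0.98 (0.13 to 1.94) for Lef1 and 0.71 (0.02 to 1.47) for Cd8b1, the last of these below 2-fold like Lef1. Without that cell 4 of the 9 genes were at least 2-fold higher, where 12.4% of 3845 genes were and 3.85% had an interval above 0. Among the 4 was Gzma, which was then at 0 in Normoxia and was set against a floor of 3 UMIs.

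**Figure D1:**
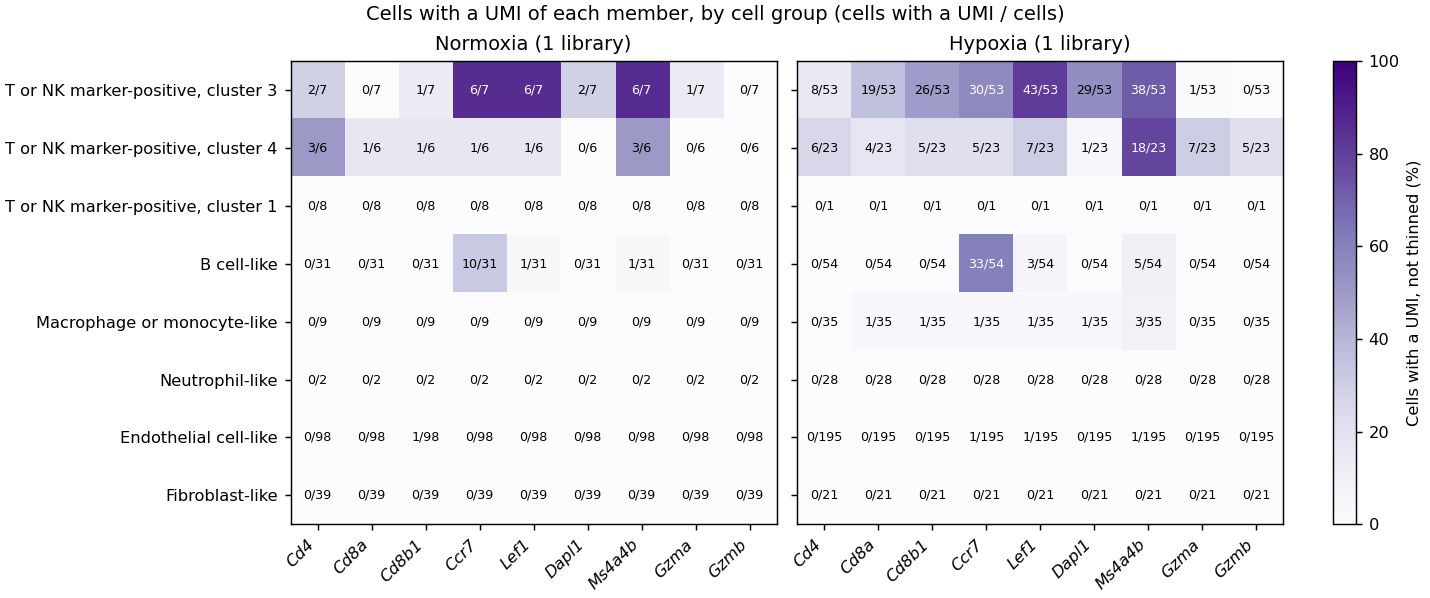
Cells with a UMI of each of the 9 genes as a number out of all cells of the group, coloured by percent (not thinned), in the Normoxia (left) and Hypoxia (right) library. Cluster 1 holds none of the 9 genes in 8 Normoxia cells, Ccr7 is the gene seen most in the B cell-like cells (10 of 31 and 33 of 54, of which 1 and 2 cells also pass the T or NK rule), and in cluster 4 of Hypoxia Gzma is in 7 and Gzmb in 5 of 23 cells.

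The 250 bases before the annotated start are shown, from RefSeq on GRCm38.p6, for Gzma, Dapl1 and Cd8a, which were among the genes with the highest ratios between the libraries, and for Gzmb, detected together with Gzma in 4 of its 5 cells. The table held a single start for 5 of the 9 genes, and the 4 sequences are printed in the direction of transcription. Capitals mark the letters TGTGGT on either strand, the core read by RUNX factors, regulators of cytotoxic T cell genes.
Gzma, chr13:113100982-113101231, minus strand: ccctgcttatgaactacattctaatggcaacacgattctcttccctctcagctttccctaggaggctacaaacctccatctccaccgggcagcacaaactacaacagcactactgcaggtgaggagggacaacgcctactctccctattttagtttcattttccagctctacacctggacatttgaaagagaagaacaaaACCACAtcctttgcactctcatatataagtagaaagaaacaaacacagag
Gzmb, chr14:56262335-56262584, minus strand: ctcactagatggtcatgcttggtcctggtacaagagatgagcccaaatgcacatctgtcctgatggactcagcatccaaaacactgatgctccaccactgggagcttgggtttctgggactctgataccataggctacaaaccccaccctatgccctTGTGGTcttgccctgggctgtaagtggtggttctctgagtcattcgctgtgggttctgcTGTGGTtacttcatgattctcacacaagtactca
Dapl1, chr2:59484403-59484652, plus strand: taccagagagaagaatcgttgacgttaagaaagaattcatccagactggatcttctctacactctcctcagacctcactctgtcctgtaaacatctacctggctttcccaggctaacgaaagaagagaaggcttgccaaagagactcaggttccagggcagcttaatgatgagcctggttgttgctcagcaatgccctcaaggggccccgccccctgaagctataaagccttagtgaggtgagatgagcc
Cd8a, chr6:71373177-71373426, plus strand: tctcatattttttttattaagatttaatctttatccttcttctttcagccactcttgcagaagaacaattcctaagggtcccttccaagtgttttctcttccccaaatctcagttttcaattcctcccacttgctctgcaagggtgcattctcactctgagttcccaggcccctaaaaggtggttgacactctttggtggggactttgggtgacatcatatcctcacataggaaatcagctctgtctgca
The letters TGTGGT occurred 1 time before Gzma (on the opposite strand) and 2 times before Gzmb, and 14.0% of the 32851 promoter windows in the table held them. Neither CTTTGA, read by LEF1 and TCF7 (in 13.8% of windows), nor GGTGTGA, read by T-box factors (in 3.33%), occurred in the 4 windows. TGTGGT and GGTGTGA can overlap by shared letters. A match describes these letters only, and its absence says nothing of a factor.

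Over all marker-positive cells, 6 of the 9 genes were at least 2-fold higher in Hypoxia, where 10.5% of the 4049 genes with at least 10 UMIs were, and all 6 had intervals above 0, as 2.03% of genes did at that fold. The interval lay above 0 for 7 of the 9, at any fold, against 4.47% of genes. None of the 9 was at least 2-fold lower, against 14% of genes, and none had an interval below 0, against 8.32%. The median log2 ratio was 1.06 over the 9 genes and -0.11 over all genes. The 9 genes were chosen with earlier results of these data known, so the shares over all genes are a scale and not a test. Gzma, Dapl1 and Cd8a had 1, 2 and 3 Normoxia UMIs and reached the minimum of 10 UMIs through the Hypoxia library. Among cells with a Cd3 UMI the log2 ratio of Gzma was 0.03. Since the Normoxia set holds cluster 1, in which the 9 genes are at 0, values without it are given below for the genes detected in Normoxia. UMI counts came from the 3' ends of transcripts, so the same gene is compared between libraries and not 1 gene with another. Levels are UMIs of the gene per 1000000 UMIs of the summed cells (CPM).

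**Figure D2:**
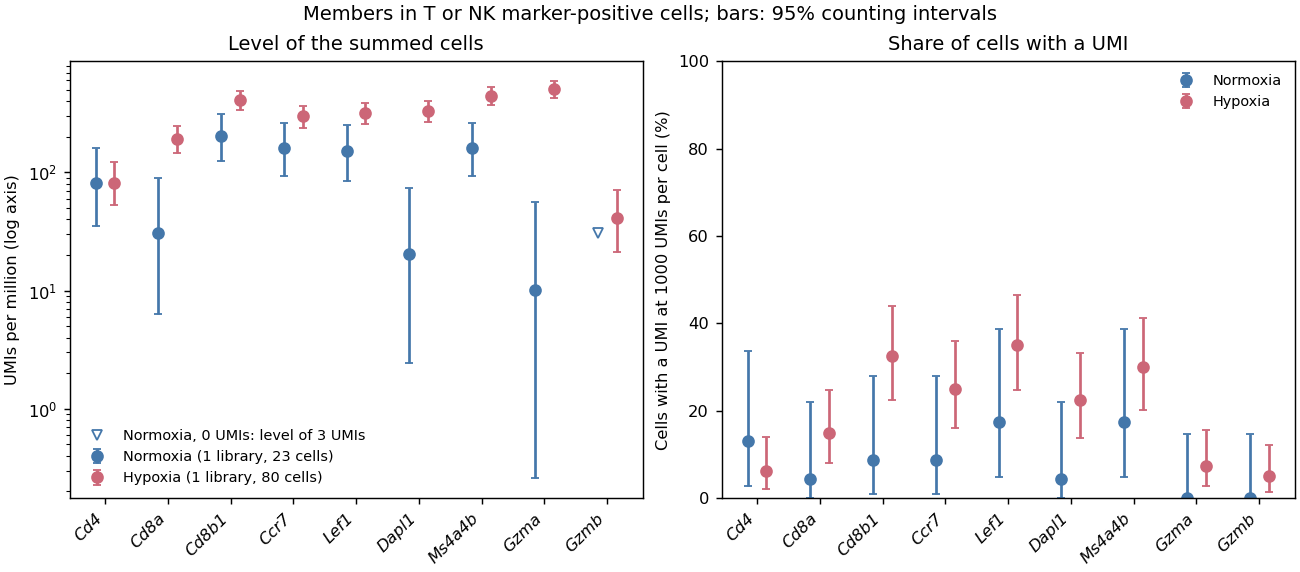
Left, level of each gene in the summed T or NK marker-positive cells (CPM, log axis) with exact Poisson intervals; right, percent of cells with a UMI after thinning each cell to 1000 UMIs in 1 draw with exact binomial intervals, for 23 Normoxia and 80 Hypoxia cells (1 library each). Levels of Cd4 coincide, those of Cd8a, Dapl1 and Gzma are apart, and the share intervals overlap for all 9 genes.

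Among the coreceptors, the CD8 genes were higher in Hypoxia and Cd4 was level. Cd4 (chr6:124864692-124888221, minus strand) had 8 UMIs in 5 of 23 Normoxia cells and 24 UMIs in 14 of 80 Hypoxia cells, 81.2 and 82.1 CPM, with a log2 ratio of 0.01 (-1.19 to 1.38). Of the Normoxia UMIs 4 lay in the cell of 17959 UMIs, and without it the log2 ratio was 0.72 (-0.82 to 2.71), while without cluster 1 it was -0.38 (-1.59 to 0.98). Cd8a (chr6:71373427-71379173, plus strand) had 3 UMIs in 1 Normoxia cell and 56 UMIs in 24 Hypoxia cells, 30.5 and 191 CPM, a log2 ratio of 2.65 (1.03 to 4.97). Its partner Cd8b1, 35932 bases away (chr6:71322788-71337494), had 20 UMIs in 2 Normoxia cells, 15 of them in 1 cell, and 119 UMIs in 32 Hypoxia cells, at most 10 in any cell. These were 203 and 407 CPM, a log2 ratio of 1.00 (0.31 to 1.77), just past 2-fold. Without cluster 1 the log2 ratio of Cd8a was 2.25 (0.63 to 4.57) and that of Cd8b1 0.60 with an interval that held 0 (-0.09 to 1.37). Without the cell of each library with most Cd8b1, the log2 ratio of Cd8b1 was 2.88 (1.61 to 4.53). So 1 Normoxia cell sets the size of the Cd8b1 ratio. As a share of cells thinned to 1000 UMIs in 1 random draw, Cd8b1 was detected in 8.70% of Normoxia and 32.5% of Hypoxia cells, a difference of 23.8 points (3.47 to 36.3), and for the other 8 genes the interval of the thinned difference held 0. That draw was a high one for Cd8b1. Computed exactly over all possible draws, the difference was 15.7 ± 3.55 points (SD between draws), and 15.4 without the cell of 17959 UMIs and 11.7 without cluster 1. The interval of the single draw is therefore not read as a difference in the share of cells with Cd8b1. Over all draws the difference was 12.2 points for Cd8a, 16.8 for Lef1, 20.4 for Dapl1 and 21.0 for Ms4a4b. Unthinned, the difference also left out 0 for Cd8a (25.7 points, 6.76 to 37.0), Lef1, Dapl1 and Ms4a4b.

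By coreceptor, the cells with Cd8a or Cd8b1 and no Cd4 numbered 2 of 23 in Normoxia and 29 of 80 (36.3%, 25.8 to 47.8%) in Hypoxia, not thinned. Those with Cd4 and no CD8 gene were 5 of 23 and 11 of 80 (13.8%, 7.07 to 23.3%), 0 and 3 cells had both, and 16 of 23 and 37 of 80 had neither. Of the 16 Normoxia cells with neither, 8 belonged to cluster 1. Coreceptor transcripts are sparse, so a cell with neither may have gone undetected. In Hypoxia, 22 of the 29 CD8 cells had Lef1, 17 had Dapl1, 15 had Ccr7, 21 had Ccl5 (a chemokine of effector and memory T cells) and 3 had a granzyme. Of the 11 CD4 cells, 5 had Lef1, 3 had Dapl1, 5 had Ccr7, 1 had Ccl5 and 0 had a granzyme (exact interval 0 to 28.5%). The median depth was 4302 UMIs in the CD8 cells and 3177 in the CD4 cells.

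The genes of naive T cells were higher in Hypoxia over all marker-positive cells, and within cluster 3 Dapl1 alone kept an interval above 0. Ccr7 (chr11:99144196-99155077, minus strand) had 16 UMIs in 7 Normoxia cells and 87 in 38 Hypoxia cells, 162 and 297 CPM, a log2 ratio of 0.87 (0.09 to 1.74). Lef1 (chr3:131110471-131224356, plus strand) had 15 UMIs in 7 and 93 UMIs in 52 cells, 152 and 318 CPM, a log2 ratio of 1.06 (0.27 to 1.96). Dapl1 (chr2:59484653-59505020, plus strand) had 2 UMIs in 2 Normoxia cells and 97 UMIs in 31 Hypoxia cells, 20.3 and 332 CPM, a log2 ratio of 4.03 (2.14 to 7.10). Leaving out cluster 1 gave 0.47 (-0.31 to 1.34) for Ccr7, 0.66 (-0.13 to 1.56) for Lef1 and 3.63 (1.74 to 6.70) for Dapl1. Without the Normoxia cell of 17959 UMIs the interval of Ccr7 also held 0 (log2 0.78, -0.05 to 1.70). Dapl1 therefore had a ratio that stood with and without these cells. The intervals of Ccr7 and Lef1 held 0 without cluster 1, and also with at least 3 rule genes required, at 0.46 (-0.36 to 1.39) and 0.67 (-0.18 to 1.63).

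Within cluster 3, where most of these cells sat, the 7 Normoxia cells had Ccr7 in 6, Lef1 in 6, and Dapl1 in 2, and the 53 Hypoxia cells had them in 30, 43 and 29. The log2 ratio was 0.11 (-0.80 to 1.14) for Ccr7, 0.35 (-0.51 to 1.32) for Lef1 and 3.28 (1.39 to 6.35) for Dapl1. Cd8b1 had 5 UMIs in 1 of the 7 Normoxia cells and 94 UMIs in 26 of the 53 Hypoxia cells, a log2 ratio of 1.99 (0.72 to 3.65). Cd8a was at 0 in the 7 Normoxia cells and had 44 UMIs in 19 Hypoxia cells, 3.11-fold higher against a floor of 3 UMIs in the Normoxia cells. With the cell of 17959 UMIs included, 3 of the 7 members with at least 10 UMIs there were at least 2-fold higher with intervals above 0. Cd8a, among the 3, reached that minimum through the Hypoxia library alone. In cluster 3, 13.3% of 2244 genes were at least 2-fold higher in Hypoxia and 4.28% had an interval above 0, while 17.8% were at least 2-fold lower and 8.24% had an interval below 0, none of them members. That cell held 46.9% of the 38333 Normoxia UMIs of the cluster. Without it the log2 ratio was 2.37 (0.48 to 5.44) for Dapl1 and 1.08 for Cd8b1 with an interval that held 0 (-0.19 to 2.74). The log2 ratio of Cd8a against the floor was then 0.72, under 2-fold. Ccr7, Lef1 and Ms4a4b then lay below 0, at -0.54, -0.33 and -0.073, with intervals that held 0. Dapl1 alone was thus at least 2-fold higher in cluster 3 with an interval above 0 both with and without that cell. The Cd4 log2 ratio in cluster 3 was -0.98 (-2.58 to 0.88).

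**Figure D3:**
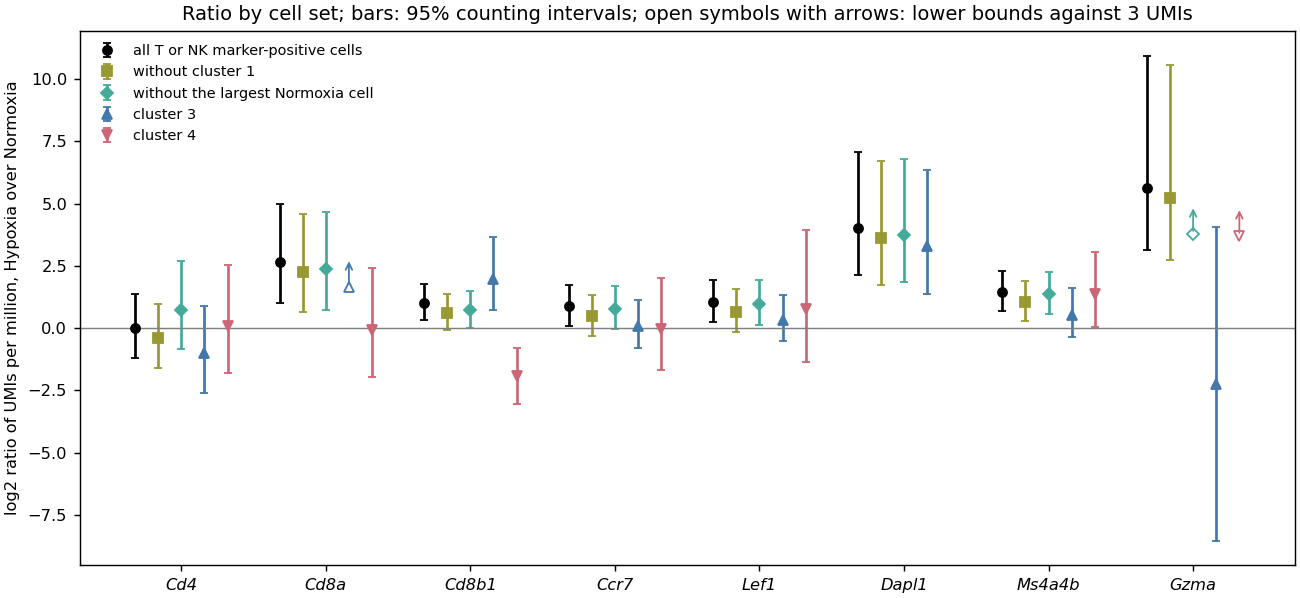
Log2 ratio of CPM, Hypoxia over Normoxia, of 8 genes in all T or NK marker-positive cells, without cluster 1, without the Normoxia cell of 17959 UMIs, and within clusters 3 and 4. Bars are exact conditional binomial intervals. Open symbols with arrows are ratios against 3 UMIs in Normoxia, which leave out the counting error of Hypoxia. Dapl1 is above 0 in each of the 4 sets where it has a ratio, Ccr7 and Lef1 come nearer to 0 without cluster 1, and Cd8b1 lies on opposite sides of 0 in clusters 3 and 4.

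Joint detection of the naive genes in Hypoxia depended on depth. Of the 38 Hypoxia cells with Ccr7, 31 (81.6%) had Lef1, against 21 of the 42 (50%) without Ccr7. In the thinned draw these were 12 of 20 (60%) and 16 of 60 (26.7%), but over all draws the expected shares were 36.1% and 27.8%. Of the 31 cells with Dapl1, 26 had Lef1 and 21 had Ccr7. In the thinned draw Ccr7 was in 4 of 18 cells with Dapl1 (22.2%) and 16 of 62 without (25.8%), and over all draws in 32.7% and 19.7%. At least 2 of the 3 genes were detected in 42 of 80 Hypoxia cells (52.5%, 41.0 to 63.8%) and 7 of 23 Normoxia cells (30.4%, 13.2 to 52.9%), and none of the 3 in 19 and 15 cells. The CD8 pair went together more closely. All 24 Hypoxia cells with Cd8a had Cd8b1, and 8 of the 56 without Cd8a had it. Thinned, Cd8b1 was in 10 of the 12 cells with Cd8a and 16 of the 68 without, and over all draws in 63.3% and 17.2%. The correlation of Cd8a with Cd8b1 across cells, in log-normalized UMIs, was 0.76 over 80 Hypoxia cells and 0.75 over 23 Normoxia cells. Cells of 1 library share their depth and source, so this describes the cells and carries no test. Of the 2589 other genes compared, Igfbp4, a gene of naive T cells, was among the 3 most like Ccr7, Lef1 and Dapl1, at 0.41, 0.46 and 0.48 in Hypoxia and 0.27, 0.50 and 0.64 in Normoxia. The other values for Cd4, Ccr7 and Ms4a4b were at most 0.45 and several had the opposite sign in Normoxia, so they are not described further.

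**Figure D4:**
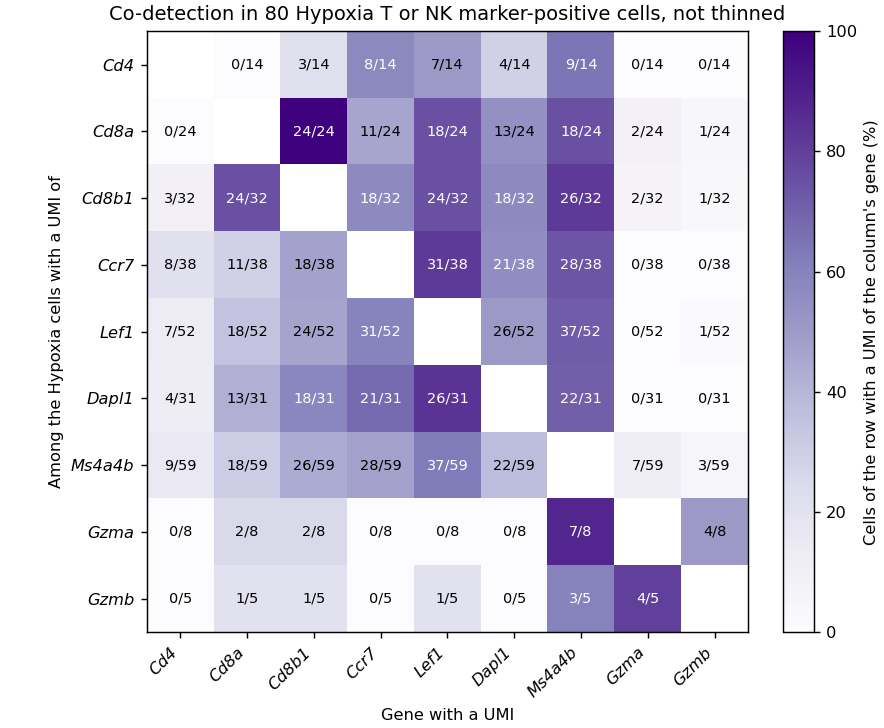
Number of Hypoxia T or NK marker-positive cells with a UMI of both genes, out of the cells with a UMI of the gene of that line, coloured by percent (80 cells, not thinned). Cd8b1 is in all 24 cells with Cd8a, Lef1 is in 31 of 38 cells with Ccr7, and Gzma has 0 cells in common with Ccr7, Lef1, Dapl1 and Cd4.

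Ms4a4b (chr19:11443553-11467055, plus strand) was detected both in cells with naive genes and in cells with granzymes. It had 16 UMIs in 9 of 23 Normoxia cells and 130 UMIs in 59 of 80 Hypoxia cells, 162 and 444 CPM, a log2 ratio of 1.45 (0.70 to 2.30), and 1.05 (0.30 to 1.90) without cluster 1. In Hypoxia it was detected in 38 of 53 cells of cluster 3 and 18 of 23 cells of cluster 4, and in 37 of the 52 cells with Lef1 and 7 of the 8 cells with Gzma. Its log2 ratio was 0.55 (-0.37 to 1.61) within cluster 3 and 1.37 (0.05 to 3.05) within cluster 4.

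The granzymes were confined in these libraries to few cells. Gzma (chr13:113093825-113100981, minus strand) had 1 UMI in 1 Normoxia cell, the cell of 17959 UMIs, and 148 UMIs in 8 Hypoxia cells, 10.2 and 506 CPM, a log2 ratio of 5.64 (3.14 to 10.95). That Normoxia cell is the one Scrublet marked as a doublet. Without it Gzma was at 0 in Normoxia, a log2 ratio of 3.76 against a floor of 3 UMIs. Without cluster 1 the log2 ratio was 5.24 (2.74 to 10.55). Gzmb (chr14:56258838-56262260, minus strand) was at 0 in the 23 Normoxia cells, which allows a level of up to 30.5 CPM at 3 UMIs, and had 12 UMIs in 5 Hypoxia cells, 41.0 CPM. Against that floor the ratio was 1.35-fold, but the exact interval of the log2 ratio began at -0.096 and so held 0, and the floor ratio fell to a log2 value of 0.03 without cluster 1. The Gzma UMIs of the 8 Hypoxia cells were 41, 41, 27, 19, 14, 3, 2 and 1. The 5 highest cells held 142 of the 148 UMIs (95.9%), had 4 to 10 UMIs of Ncr1, an activating receptor of NK cells, and had no UMI of Cd3d, Cd3e or Cd3g. Of the 9 Hypoxia cells with either granzyme, 8 lay in cluster 4, 4 had both granzymes, 6 had no Cd3 UMI, 3 had a CD8 gene and 1 had any of Ccr7, Lef1 and Dapl1 (2 UMIs of Lef1). All 9 had Nkg7, a gene of the rule that is also a cytotoxic granule gene, so the rule itself admits such cells. Among cells with a Cd3 UMI, Gzma had 1 UMI over the 21 Normoxia cells and 3 over the 74 Hypoxia cells, and the log2 ratio was 0.03 (-3.61 to 5.75). The Ncr1 cells were seen in 1 library alone, and 0 of 23 Normoxia cells had Ncr1.

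**Figure D5:**
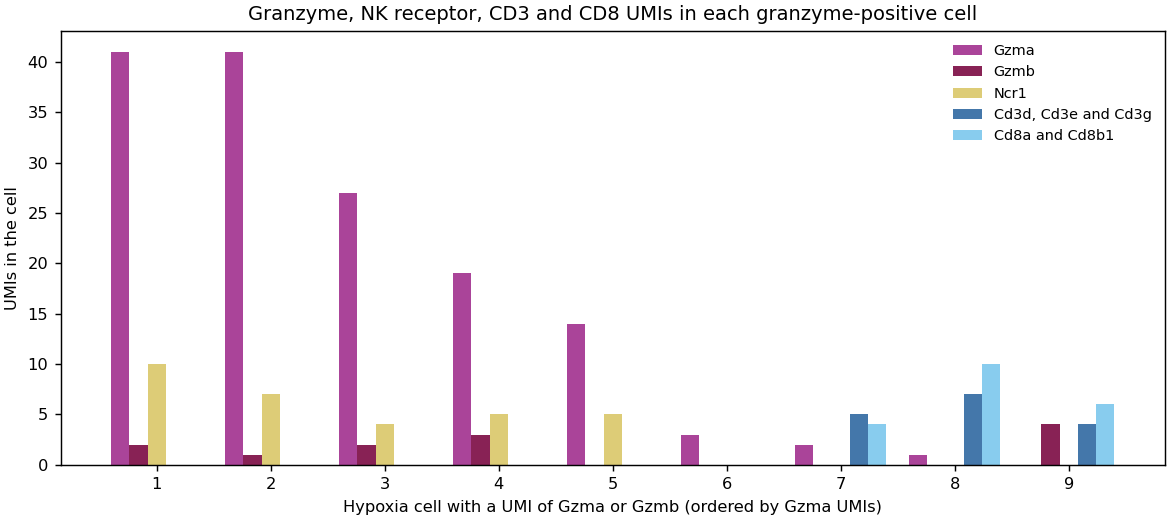
UMIs of Gzma, Gzmb, Ncr1, the 3 CD3 genes and the 2 CD8 genes in each of the 9 Hypoxia T or NK marker-positive cells with a granzyme UMI, 1 cell per position. Cells 1 to 5 have 14 to 41 UMIs of Gzma with Ncr1 and no CD3, and cells 7 to 9 have CD3 and CD8 with at most 4 granzyme UMIs.

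Within cluster 4, Gzma was at 0 in the 6 Normoxia cells and had 147 UMIs in 7 of the 23 Hypoxia cells. Against a floor of 3 UMIs this was 12.9-fold higher. Of the other genes there, Ms4a4b and Cd8b1 alone had intervals that left out 0. Cd8b1 was 1.93 lower on the log2 scale in Hypoxia (-3.06 to -0.79), with 15 UMIs in 1 of 6 Normoxia cells and 15 UMIs in 5 of 23 Hypoxia cells. Since 1 cell held all the Normoxia UMIs, the interval of Cd8b1 is too narrow, and its ratio is not read as a lower level in Hypoxia. Of the 8 members with at least 10 UMIs in cluster 4, Gzma and Ms4a4b were at least 2-fold higher and Cd8b1 at least 2-fold lower, each with an interval off 0. Gzma reached that minimum through the Hypoxia library alone, so its place in this count is not a separate result. In that cluster 15% of 1372 genes were at least 2-fold higher, 9.84% at least 2-fold lower, 3.28% had an interval above 0 and 4.15% an interval below 0. Across cells, the genes most like Gzma in Hypoxia were Eomes (0.84), a transcription factor of NK and effector T cells, Fcer1g (0.81), a signalling adaptor of NK cells, and Prf1 (0.68), the pore-forming protein perforin, over 80 cells of which 8 had Gzma.

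The wider gene lists of the same pathways are set beside all genes, of which 10.5% were at least 2-fold higher and 14% at least 2-fold lower, 4.47% had an interval above 0 and 8.32% below 0. Of 13 further naive and central memory genes, all measured, 2 were at least 2-fold higher in Hypoxia with intervals above 0, Foxp1 (log2 1.39, 0.44 to 2.51) and Txk (1.91, 0.71 to 3.41), and the median was 0.53. Tcf7, a transcription factor high in naive T cells, had a log2 ratio of 0.47 with an interval that held 0 (-0.27 to 1.27). In the other direction, Bach2 was at least 2-fold lower (-1.31), and Cd28 (-0.52) and Il7r (-0.43) lay below 0, each with an interval that held 0. Of 20 cytotoxic effector genes 10 were measured, and 6 were at least 2-fold higher with intervals above 0. These were Ccl5 (4.24, 3.59 to 4.98), Klrd1 (3.54, 1.63 to 6.61), Prf1 (2.75, 0.11 to 8.13), Ctsw (2.41, 0.98 to 4.33), and Ccl3 and Ccl4, which were at 0 in Normoxia. Ccl5 had 19 UMIs in 7 Normoxia cells and 1066 UMIs in 35 Hypoxia cells. Klrg1 was at least 2-fold lower (-1.57) and Id2 lay below 0 (-0.46), each with an interval that held 0. Of 12 NK cell genes 10 were measured and 9 had intervals above 0, among them Tyrobp (3.86, 1.96 to 6.92), with 86 UMIs in 9 Hypoxia cells, and Klrk1 (1.56, 0.08 to 3.51). Fcer1g and Ncr1 were at 0 in Normoxia, giving log2 ratios of 2.37 and 1.80 against a floor of 3 UMIs, with exact intervals that began at 2.01 and 1.41. In all, 7 of the 10 measured NK genes and 4 of the 10 measured cytotoxic genes were at 0 in Normoxia. They reached the minimum of 10 UMIs through the Hypoxia library alone, some of them in 2 or 3 cells. Counts for these lists, here and without cluster 1, are therefore not read as separate results. None of the 13 T cell receptor complex and signalling genes was past 2-fold, and 3 had intervals above 0, Trac (0.69), Trbc1 (0.66) and Thy1 (0.54). Of the 9 helper and regulatory genes 5 were measured, and 2 were at least 2-fold lower with intervals below 0, Ctla4 (-3.31, 13 UMIs in all) and Tnfrsf18 (-1.05, -2.03 to -0.03). Of the 12 activation and tissue residency genes 4 were measured. Cxcr6 (-1.92) and Cd44 (-1.57) were at least 2-fold lower, Cd69 (-0.87) had an interval below 0, and Cxcr3 (2.01) had an interval that held 0. Of the 6 measured type 2 innate lymphoid genes, 4 were at least 2-fold lower, Arg1, Areg, Rora and Il1rl1. All 11 Normoxia UMIs of Areg lay in 1 cell, outside cluster 1. Il1rl1 and Arg1 are among the genes that lead cluster 1. Without cluster 1, 11.9% of all genes were at least 2-fold higher and 3.64% had an interval above 0. The cytotoxic list then had 9 measured genes, 4 at least 2-fold higher and 5 with an interval above 0, and the NK list had 4 and 5 of 10. The interval of Prf1 then held 0, the median of the naive list was 0.13, and Cd28 was at -0.92 (-1.45 to -0.38). Tnfrsf18, a leading gene of cluster 1, turned to 1.55 (-0.46 to 4.68). The intervals of Cd69 (-0.66) and Cd44 (-1.29) held 0, while those of Ctla4 (-3.71) and Cxcr6 (-1.68) stayed below 0. Of 4 measured innate lymphoid genes, 1 had an interval below 0, Areg. Without the cell of 17959 UMIs the interval of Klrk1 held 0 (1.27, -0.21 to 3.22). Ctla4 then fell under the minimum of 10 UMIs. Il7r (-0.72, -1.28 to -0.15) and Id2 (-0.65, -1.12 to -0.15) then had intervals below 0.

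Outside the marker-positive cells, 8 of the 9 genes were scarce. In Hypoxia the marker-positive cells held 92.3 to 100% of the UMIs of each gene other than Ccr7. Of Ccr7 they held 57.6% in Hypoxia and 44.4% in Normoxia, and the B cell-like cluster held most of the remainder. There Ccr7, which also guides B cells within lymphoid tissue, was detected in 10 of 31 Normoxia and 33 of 54 Hypoxia cells, 129 and 552 CPM, a log2 ratio of 2.09 (1.35 to 2.90). Without the B cell-like cells that passed the T or NK rule the log2 ratio was 1.96 with an interval above 0, and in 1 draw thinned to 1000 UMIs the shares were 5 of 30 (16.7%, 5.64 to 34.7%) and 19 of 51 (37.3%, 24.1 to 51.9%). In the endothelial cell-like cells each of the 9 genes was detected in 0 or 1 of 98 Normoxia and of 195 Hypoxia cells, at median depths of 2520 and 2810 UMIs. The rule was passed by 1 of 98 and 0 of 195 endothelial cell-like cells, 1 of 31 and 2 of 54 B cell-like cells.

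Transcripts of other cell types were present within the marker-positive cells. At least 2 markers of another type were detected in 7 of 23 Normoxia and 22 of 80 Hypoxia cells. Endothelial markers summed to 2223 CPM in Normoxia (1341 without the cell of 17959 UMIs), where 13 of 23 cells had any, and 222 CPM in Hypoxia, where 40 of 80 had any, with 0 and 3 of the 11 markers at 0. B cell markers summed to 649.7 and 301 CPM, and macrophage or monocyte markers to 355 and 554 CPM. Plasma cell markers had 2 and 266 UMIs, 265 of the latter in 1 Hypoxia cell of 9038 UMIs in cluster 3 that carried 6 UMIs of Cd8a and 1 UMI of Gzma. Leaving out the cells with 2 markers of a B cell, endothelial, fibroblast, macrophage, neutrophil or alveolar type 2 cell list gave log2 ratios with intervals above 0 for Dapl1 (3.27, 1.36 to 6.35), Cd8a (1.79, 0.13 to 4.13) and Ms4a4b (1.24, 0.34 to 2.29). Gzma was then at 0 in Normoxia, with a log2 ratio of 3.48 against a floor of 3 UMIs. The intervals held 0 for Cd8b1 (0.088, -0.64 to 0.88), Ccr7 (0.13, -0.77 to 1.14), Lef1 (0.60, -0.30 to 1.62) and Cd4 (0.75, -1.03 to 3.15).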

How the data were processed

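Matrices of 10x Chromium 3' v3.1 data, 1 per group, were used. Their values are counts of UMIs, deposited by the authors without any scaling; the matrix headers name Cell Ranger 3.1.0, and the submitters' processing notes name mm10, Cell Ranger and Seurat. The labels mention replicates, but each group counted as 1 library; the study's methods describe a preparation that differs from these labels. The libraries shared 2 barcode sequences.

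The filters follow the study's methods: 200 to 6000 genes per barcode and a mitochondrial share of 5% or less. UMIs were summed per library and cell set. Sums have exact Poisson intervals, shares Clopper-Pearson intervals, ratios exact conditional binomial intervals and differences of shares Newcombe intervals, all at 95%. A count of 0 allows 3 counts, and a ratio against that floor leaves out the counting error of the other library. Shares were thinned to 1000 UMIs per cell in 1 seeded draw (with the exact expectation over all draws added after seeing the data), and every marker-positive cell had that depth. Cells were clustered with scanpy 1.11.5 (2000 variable genes, 15 components, 15 neighbours, Leiden resolution 1) without the 9 genes, and clusters were named from marker lists when at least 3 markers were detected in at least 25% of cells at 2 times the median level. Doublets were kept, and Scrublet marked 1 Normoxia and 2 Hypoxia cells. Named genes were the 9 members, up to 4 genes per list with the largest ratios among those with at least 20 UMIs and an interval that left out 0, and up to 3 genes most alike (correlation of at least 0.3, detected in at least 10 cells). Tcf7, Bach2, Cd28, Il7r, Klrg1, Id2, Ctla4, Cxcr3 and the innate lymphoid genes were chosen after their values were seen. Members, lists and rules were chosen with earlier results of these data known. The interval of the ratio was tried on simulated library sums drawn as Poisson counts, which is the error that the interval assumes. The simulation held no cells, so it cannot show how the interval holds where UMIs gather in few cells. Positions come from GENCODE M21 on GRCm38. Alternatives covered cell filters, the marker rule, scaling, thinning and resolution; leaving out cluster 1 or the largest Normoxia cell, clusters 3 and 4 alone, and cluster 3 without that cell, were added after seeing the data.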

Additional observations from a re-analysis of the deposited data

Results flagged for a closer look

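The log2 ratio of Cd8b1, Hypoxia over Normoxia, was 1.99 in cluster 3 and -1.93 in cluster 4, in opposite directions with both intervals off 0. That contrast was not tested, and in cluster 4 all 15 Normoxia UMIs came from 1 of 6 cells. In cluster 3 the value depended on the Normoxia cell of 17959 UMIs and was 1.08 without it, with an interval that held 0 (-0.19 to 2.74).

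Among the 160 Hypoxia barcodes that the filters left out, which enter no comparison, Ccr7 had 20 UMIs in 13 barcodes, against 5 UMIs in 4 of the 80 Normoxia barcodes left out. Lef1 had 5 UMIs in 3 of those Hypoxia barcodes, all 5 of them in barcodes that pass the T or NK marker rule, and 0 UMIs in the Normoxia barcodes left out.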

How the results depend on the processing

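No paired analysis was possible because each group had 1 library. The share of T or NK marker-positive cells was above its Normoxia value in Hypoxia under all 11 alternatives. It was 14.0% in Hypoxia without cell filters and 12.8% without cells carrying 2 markers of another type, and 4.78% in Normoxia with at least 3 marker genes and 4.44% in the T or NK cell-like clusters. The number of the 9 genes at least 2-fold higher in Hypoxia was 3 with at least 3 marker genes and 3 in the T or NK cell-like clusters, and 4 to 6 under the other alternatives at 2-fold. At a fold of 1.5 it was 7, where 769 of all 4049 genes were higher. Among all genes 10.5% were at least 2-fold higher as reported, 11.9% without cluster 1 and 12.4% without the largest Normoxia cell. The share for the other cell sets is not given here, so their counts are not read against a background. Over all genes, 690 were higher and 2066 lower with no minimum of UMIs, 174 and 185 with a minimum of 20 UMIs, and 769 and 1054 of 4049 at a fold of 1.5. Leaving out cells with 2 markers of another type gave 322 lower. Of these counts, the number of genes compared is given for the fold of 1.5 alone, so the others are not read as shares. Over the 15 alternatives other than single clusters, the log2 ratio of Dapl1 ranged from 3.27 to 4.84, of Cd8a from 1.79 to 2.84, of Ms4a4b from 0.83 to 1.66, of Lef1 from 0.47 to 1.37, of Ccr7 from 0.11 to 1.14 and of Cd8b1 from 0.09 to 2.88. Gzma ranged from 0.03, when a Cd3 UMI was required, to 8.04, with equal weight per cell, and Cd4 from -0.59 to 0.75. Intervals stayed above 0 in 14 of 14 alternatives with an interval for Cd8a, Dapl1 and Ms4a4b, 13 of 14 for Gzma, 10 of 14 for Lef1 and Cd8b1, and 7 of 14 for Ccr7. The direction turned within single clusters: Gzma to -2.24 in cluster 3 (1 UMI in each library), and in cluster 4 Cd8b1 to -1.93, Cd8a to -0.053 and Ccr7 to -0.021. In cluster 3 without the largest Normoxia cell, Ccr7 turned to -0.54, Lef1 to -0.33 and Ms4a4b to -0.073. The cause was not tested. The interval of the thinned share difference of Cd8b1 lay above 0 in 3 of 14 alternatives and that of Lef1 in 5 of 14. These single draws also redraw every later cell when 1 cell is left out, so they do not separate the cell set from the draw. Over all draws, the Cd8b1 difference was 15.7 points in the marker-positive cells and 15.4 without the largest Normoxia cell. With 98502 Normoxia UMIs, a gene of 1 UMI stood at 10.2 CPM, which limits Dapl1, Cd8a and the granzymes most.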
